A study of Sus scrofa with 2 samples.

Results

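The genes of Notch signalling described here were followed through the nuclei of pig pancreas: the receptors NOTCH2, NOTCH3 and NOTCH4, the ligands JAG1 and DLL4, the DNA-binding factor RBPJ and the target gene HES1. These 7 genes were chosen by symbol, and all were present among the 31908 genes of the matrices. Single-nucleus RNA sequencing tags each RNA molecule with the barcode of its nucleus and with a unique molecular identifier (UMI), and levels are given as UMIs of a gene per 1000000 UMIs of a class of nuclei (CPM). The series holds 1 library from a wild-type (WT) Bama pig and 1 library from a PIGinH11 Bama pig, each made from one piece of the body of the pancreas. PIGinH11 pigs carry GIPRdn, hIAPP and PNPLA3 I148M, knocked in at the H11 locus under promoters of beta cells or liver, and the WT pig carries none of these. Both pigs were 18 months old, had control diet up to 6 months of age and then a high-fat and high-sucrose diet (HFHSD) for 12 months. Since each group is 1 animal and 1 library, animal, library and genotype cannot be told apart, no test between the groups is given, and every interval is an exact 95% interval of counting error only.

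Notch receptors sit in the cell membrane and are activated by ligands on a neighbouring cell. The receptor is then cut, and its intracellular part moves to the nucleus, joins RBPJ and switches on genes of the HES and HEY families. In vessels the pathway is known for arterial identity, sprouting of capillaries and the coating of vessels by mural cells, and in the pancreas for keeping progenitor and duct cells from becoming endocrine or acinar.

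Before filtering, 60 barcodes occurred in both libraries. After filtering, 11855 WT nuclei (median 3018 UMIs) and 13126 PIGinH11 nuclei (median 1167 UMIs) were retained. Clusters were made without the Notch genes, so the level of a Notch gene in a class was not used to form it. Classes were named from markers and carry the ending "-like". They held 38 WT and 80 PIGinH11 mural-like nuclei, 279 and 543 endothelial-like, 195 and 253 stellate-like, 282 and 533 endocrine-like, 2150 and 2201 ductal-like, 8441 and 9058 acinar-like, 75 and 191 immune-like, and 46 and 138 Schwann-like nuclei. The marker sums describe the classes and are no check of the names, which came from the same markers. All 14 mural markers were detected in mural-like nuclei and summed to 5892 CPM in WT and 6304 CPM in PIGinH11. In endothelial-like nuclei they summed to 24.5 and 37.7 CPM, and all 16 endothelial markers there to 9909 and 9175 CPM. Mural-like nuclei also held acinar markers at 6728 CPM in WT and 4524 CPM in PIGinH11, and ductal markers at 3660 and 5723 CPM. In pericyte-like nuclei, a part of this class, the acinar markers summed to 1936 and 2027 CPM. The ductal markers there stayed near the class sums, at 3738 CPM in WT and 5327 CPM in PIGinH11. In smooth-muscle-like nuclei they summed to 4095 and 7038 CPM. Some endothelial-like (40 in WT and 179 in PIGinH11), mural-like (10 and 21), endocrine-like (36 and 158) and immune-like nuclei (23 and 104) lay in subclusters that stayed unnamed and are called mixed. A further cluster of 349 WT and 129 PIGinH11 nuclei, led by digestive enzyme genes such as CELA2A and CPA1, stayed unnamed and is not part of the 8 classes.

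Each receptor had its highest level in a different class, and that class was the same in both libraries: NOTCH2 in ductal-like, NOTCH3 in mural-like and NOTCH4 in endothelial-like nuclei. DLL4 was also highest in endothelial-like and RBPJ in immune-like nuclei of both libraries. JAG1 was highest in mural-like nuclei of WT and in endothelial-like nuclei of PIGinH11, with overlapping intervals. HES1 was highest in endothelial-like nuclei of WT and ductal-like nuclei of PIGinH11. In PIGinH11 the HES1 intervals of these classes overlapped. The fold of endothelial-like over ductal-like nuclei was 2.15 in WT (interval 1.58 to 2.88) and 0.653 in PIGinH11 (0.459 to 0.912). The plot of levels by class shows these patterns for the 7 genes.

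**Figure D1:**
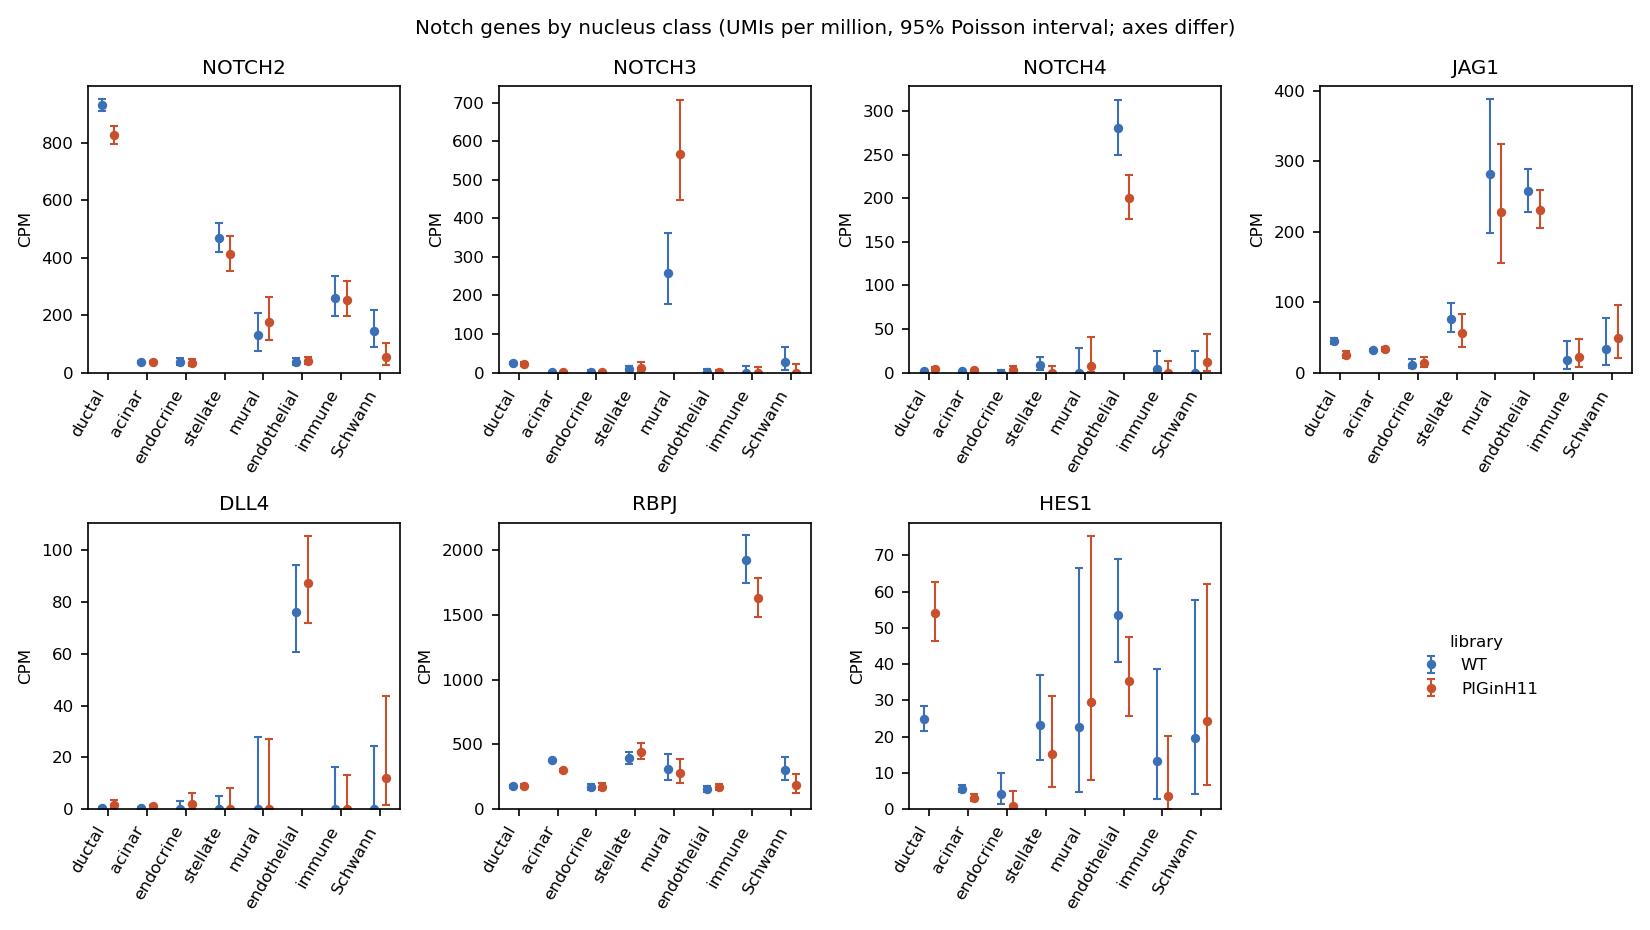
Level of each gene (CPM, linear axis, a different range in each panel) in 8 classes of nuclei in the WT and PIGinH11 libraries; points are levels of 1 library and bars are exact 95% Poisson intervals. NOTCH2 stands highest in ductal-like nuclei (929.9 and 825 CPM), NOTCH3 in mural-like nuclei (258 and 566 CPM) and NOTCH4 in endothelial-like nuclei (280.0 and 201 CPM).

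NOTCH2 (ENSSSCG00000006709, Sscrofa11.1 chr4:100951522-101152348) encodes a receptor that is known in the pancreas from ducts and their progenitors. Ductal-like nuclei had 929.9 CPM in WT (7996 UMIs, interval 909.6 to 951) and 825 CPM in PIGinH11 (2747 UMIs, interval 794 to 856). This was 24.7-fold the level in acinar-like nuclei in WT and 23.2-fold in PIGinH11. Stellate-like nuclei came second with 467 CPM in WT and 411 CPM in PIGinH11, and their intervals did not reach those of ductal-like nuclei in either library. Immune-like nuclei followed with 259.8 CPM and 252 CPM, then mural-like nuclei with 129 and 177 CPM and Schwann-like nuclei with 145 CPM (22 UMIs) and 54.6 CPM (9 UMIs). Endocrine-like, acinar-like and endothelial-like nuclei lay between 34.3 and 40.9 CPM, and neighbours in this group overlapped. The endocrine and endothelial levels of WT rest on few nuclei: in each class 1 nucleus held 14 UMIs, without which the levels were 26.4 CPM and 24.7 CPM. Mixed subclusters held 25 of the 45 endocrine UMIs of WT and 19 of the 39 of PIGinH11, and beta-like nuclei had 13.2 and 12.6 CPM. The ductal markers summed to 7959 and 7107 CPM in stellate-like and 4645 and 2370 CPM in immune-like nuclei. In mural-like nuclei they summed to 3660 and 5723 CPM, and in Schwann-like nuclei to 6460 and 2595 CPM. The part of ductal RNA in the NOTCH2 levels of the classes other than ductal-like was not tested.

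A NOTCH2 UMI was seen in 78.8% of WT ductal-like nuclei and 50.4% of PIGinH11 ductal-like nuclei, at median depths of 3408 and 1023 UMIs. With every nucleus thinned to 500 UMIs these shares became 31.1% (Clopper–Pearson interval 29.1 to 33.1) and 27.0% (25.2 to 28.9). In acinar-like nuclei the thinned shares were 2.25% and 2.30%. Thus the large gap between libraries in the unthinned share was reduced to a few percentage points at equal depth.

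Ductal-like nuclei fell into 3 clusters that differed in NOTCH2. Cluster 6 had 1012 CPM in WT and 928 CPM in PIGinH11, cluster 7 had 620.4 and 486 CPM, and cluster 14 had 268 and 304 CPM. The fold of cluster 6 over cluster 14 was 3.77 in WT (interval 3.21 to 4.47) and 3.05 in PIGinH11 (2.24 to 4.27), so the order was the same in both libraries. Median depths in WT and PIGinH11 were 4455 and 1478.5 UMIs in cluster 6, 1345 and 673 in cluster 7, and 2373.5 and 1120 in cluster 14. The part of depth in the NOTCH2 levels of these clusters was not tested. Among immune-like nuclei, NOTCH2 was higher in macrophage-like than in lymphocyte-like nuclei, with 475 against 95.3 CPM in WT and 439 against 150.4 CPM in PIGinH11. Within endothelial-like nuclei most NOTCH2 UMIs lay in the mixed subclusters (28 of 41 in WT and 32 of 51 in PIGinH11), where ductal or acinar markers were the best match. Without these the endothelial level was 13.9 CPM in WT and 20.7 CPM in PIGinH11, and the log2 ratio (PIGinH11 over WT) was 0.57 in place of 0.14 (interval -0.52 to 1.71). The part of these other markers in the endothelial NOTCH2 level was not tested.

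NOTCH3 (ENSSSCG00000025176, chr2:62364507-62402348) encodes the receptor known from vascular smooth muscle and pericytes. Mural-like nuclei had 258 CPM in WT (34 UMIs, interval 179 to 361) and 566 CPM in PIGinH11 (77 UMIs, interval 447 to 708), and these intervals did not overlap. Endothelial-like nuclei, the neighbours of mural cells in the vessel wall, had 2.72 CPM (3 UMIs) and 1.604 CPM (2 UMIs). Arterial-like and capillary-like nuclei held no NOTCH3 UMI in either library, and immune-like nuclei held none, which allows up to 13.2 CPM in WT and 10.8 CPM in PIGinH11 (the level of 3 UMIs, taken here as the limit of a count of 0; the exact 95% upper bounds are 16.2 and 13.3 CPM).

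Outside the vessel wall, NOTCH3 was found in ductal-like nuclei at 24.5 CPM in WT (211 UMIs) and 22.8 CPM in PIGinH11 (76 UMIs). Acinar-like nuclei had 0.596 and 1.67 CPM, so the ductal level was 41.2-fold higher in WT (interval 25.4 to 70.8) and 13.6-fold higher in PIGinH11 (8.63 to 22.2). Mural markers themselves were at like sums in both classes, 11.4 CPM in ductal-like and 11.8 CPM in acinar-like WT nuclei, and 39.9 and 32.1 CPM in PIGinH11. The share of ductal-like nuclei with a NOTCH3 UMI was 7.91% in WT and 3.18% in PIGinH11, while in acinar-like nuclei, at median depths of 2846 and 1202.5 UMIs, it was 0.213% and 0.287%. At 500 UMIs per nucleus the ductal shares were 1.21% and 1.09%.

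Within mural-like nuclei, pericyte-like nuclei (22 in WT and 34 in PIGinH11) had 347 CPM in WT (26 UMIs) and 589.8 CPM in PIGinH11 (32 UMIs). Smooth-muscle-like nuclei had 190.5 CPM in WT, from 2 UMIs in 6 nuclei, and 738 CPM in PIGinH11, from 43 UMIs in 25 nuclei. The number of smooth-muscle-like nuclei in WT is too small for a comparison, and pericyte-like nuclei had a log2 ratio (PIGinH11 over WT) of 0.76 (interval -0.03 to 1.57). A NOTCH3 UMI was seen in 50.0% of WT and 41.3% of PIGinH11 mural-like nuclei, and in 10.5% and 16.3% at 500 UMIs per nucleus.

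NOTCH4 (ENSSSCG00000001440, chr7:24231293-24256281) encodes the receptor known from endothelium. Endothelial-like nuclei had 280.0 CPM in WT (309 UMIs, interval 249.6 to 313) and 201 CPM in PIGinH11 (250 UMIs, interval 176 to 227). All other classes lay at or below 12.1 CPM in both libraries, with 0 UMIs in mural-like nuclei of WT and 1 UMI in those of PIGinH11. A NOTCH4 UMI was seen in 55.2% of WT and 26.3% of PIGinH11 endothelial-like nuclei (median depths 3860 and 1622 UMIs) whereas 0.486% and 0.408% of the acinar-like nuclei had one. At 500 UMIs per nucleus the endothelial shares were 10.8% (interval 7.37 to 15.0) and 9.39% (7.07 to 12.2).

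The level of NOTCH4 differed along the vessel tree in the same order in both libraries. Arterial-like nuclei had 441 CPM in WT and 405 CPM in PIGinH11, capillary-like nuclei 348 and 307 CPM, and venous-like nuclei 90.7 and 78.0 CPM. Arterial-like exceeded venous-like nuclei 4.87-fold in WT (interval 2.99 to 8.30) and 5.2-fold in PIGinH11 (3.20 to 8.83), whereas the intervals of arterial-like over capillary-like nuclei held 1 in both. Lymphatic-like nuclei (12 and 29) had 0 and 1 UMIs.

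**Figure D2:**
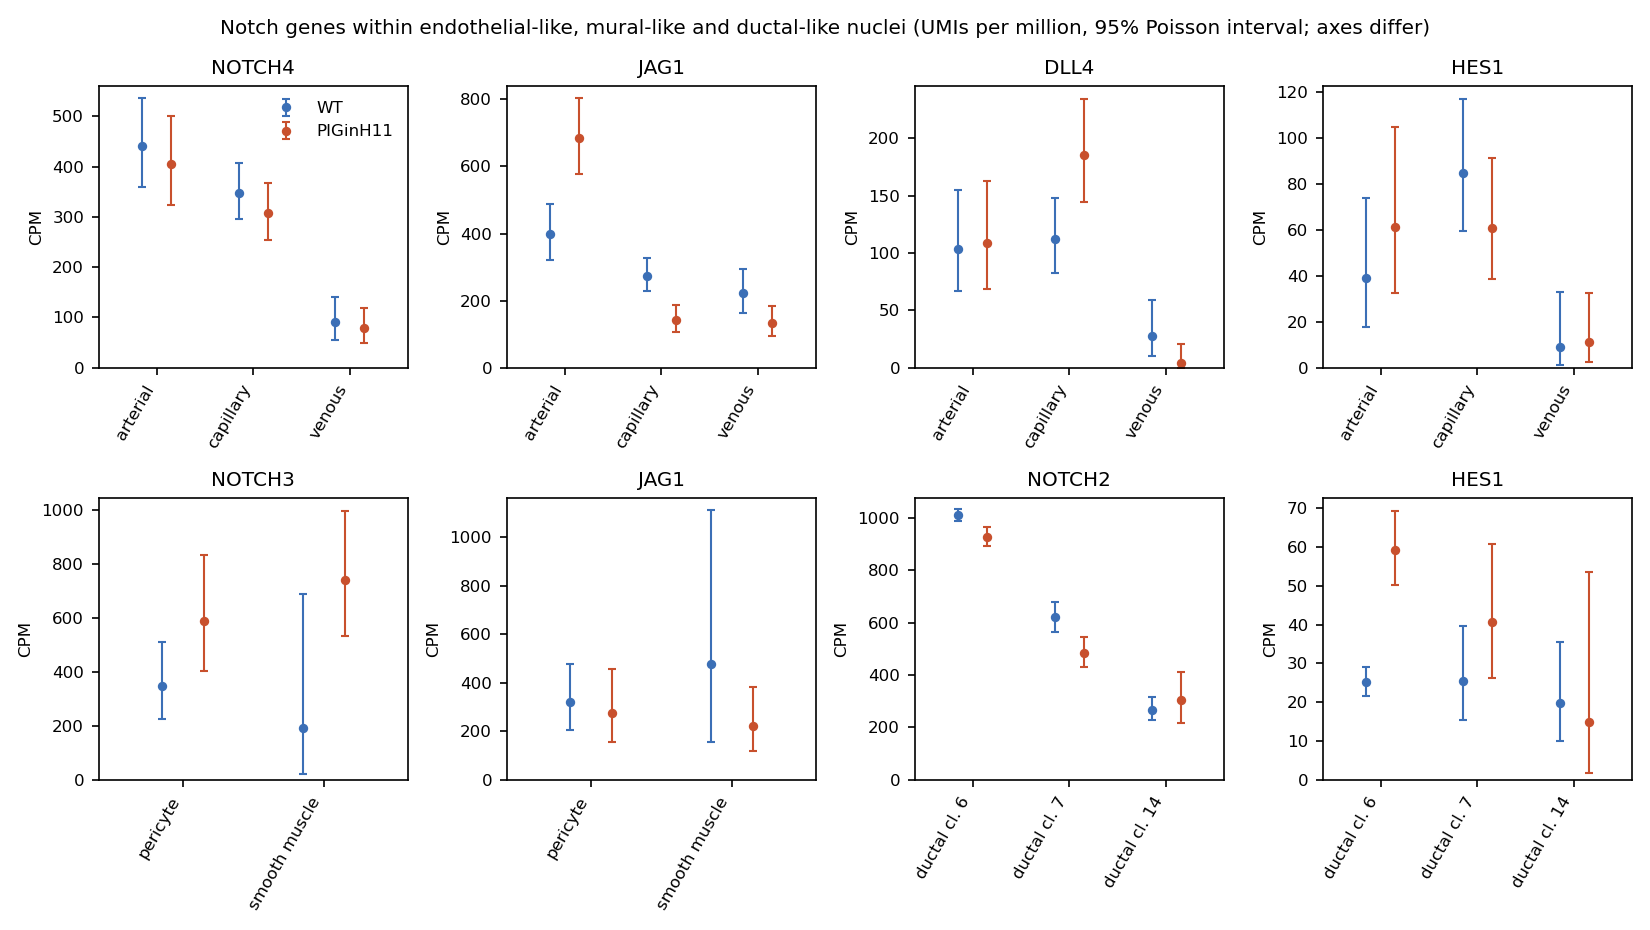
Levels (CPM, linear axis, a different range in each panel) of NOTCH4, JAG1, DLL4 and HES1 in arterial-like, capillary-like and venous-like nuclei, of NOTCH3 and JAG1 in pericyte-like and smooth-muscle-like nuclei, and of NOTCH2 and HES1 in the 3 ductal-like clusters. Points are levels of 1 library and bars exact 95% Poisson intervals; NOTCH4 and DLL4 are lowest in venous-like nuclei, and JAG1 in arterial-like nuclei stands at 398 CPM in WT and 684 CPM in PIGinH11.

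JAG1 (ENSSSCG00000007067, chr17:19591248-19629659) encodes a Jagged ligand that passes signals between endothelial and mural cells. Mural-like nuclei had 281 CPM in WT (37 UMIs) and 228 CPM in PIGinH11 (31 UMIs), and endothelial-like nuclei had 257 CPM (284 UMIs) and 231 CPM (288 UMIs). The fold of mural-like over endothelial-like nuclei was 1.09 in WT (interval 0.753 to 1.54) and 0.987 in PIGinH11 (0.658 to 1.43), so the order of these classes could not be resolved. Stellate-like nuclei followed in both libraries with 76.1 and 56.2 CPM. Ductal-like nuclei had 44.8 and 25.2 CPM and acinar-like nuclei 31.9 and 33.4 CPM, in opposite order in the libraries, and endocrine-like nuclei were lowest with 11 and 13.2 CPM.

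Within endothelial-like nuclei JAG1 was highest in arterial-like nuclei of both libraries. There the level was 398 CPM in WT (92 UMIs) and 684 CPM in PIGinH11 (145 UMIs), with a log2 ratio of 0.78 (interval 0.39 to 1.17). In capillary-like nuclei it was 275 CPM (120 UMIs) and 143 CPM (54 UMIs), with a log2 ratio of -0.94 (-1.43 to -0.47), and in venous-like nuclei 222 and 134 CPM (-0.73, interval -1.40 to -0.08). Arterial-like exceeded capillary-like nuclei 1.45-fold in WT (interval 1.09 to 1.92) and 4.79-fold in PIGinH11 (3.48 to 6.67). In PIGinH11, 3 of the 65 arterial-like nuclei held 10 or more UMIs each, the highest 16 and the second 15 of the 145. The highest count in a WT arterial-like nucleus was 7. Without the highest PIGinH11 nucleus alone the level was 633 CPM. Thus the near equal class level of JAG1 in the 2 libraries held opposite ratios in its subclasses, and this difference between subclasses was not tested.

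In ductal-like nuclei JAG1 was 44.8 CPM in WT (385 UMIs) and 25.2 CPM in PIGinH11 (84 UMIs), a log2 ratio of -0.83 (interval -1.19 to -0.48). Cluster 14, with the least NOTCH2, had the highest JAG1 of the ductal-like clusters, at 84.6 CPM in WT (47 UMIs) and 81.6 CPM in PIGinH11 (11 UMIs). In PIGinH11, 1 nucleus held 3 of the 11 UMIs, and without it the level was 60.8 CPM. No interval was formed for cluster 14 over cluster 7. Cluster 7 had 62.8 CPM (47 UMIs) and 15.3 CPM (9 UMIs), and cluster 6 had 39.9 and 24.6 CPM.

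DLL4 (ENSSSCG00000004755, chr1:130376720-130386411) encodes a Delta-like ligand of arteries and sprouting capillaries. Most of its UMIs lay in endothelial-like nuclei, at 76.1 CPM in WT (84 UMIs) and 87.4 CPM in PIGinH11 (109 UMIs), and their intervals overlapped. Acinar-like nuclei had 0.464 and 1.03 CPM, ductal-like nuclei 0.233 and 1.501 CPM, and mural-like, stellate-like and immune-like nuclei had no DLL4 UMI in either library, which in mural-like nuclei allows up to 22.8 and 22.1 CPM at the limit of 3 UMIs (exact 95% upper bounds of 28.0 and 27.1 CPM). A DLL4 UMI was seen in 21.1% and 12.9% of endothelial-like nuclei, whereas 0.154% and 0.166% of the acinar-like nuclei had one.

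Capillary-like nuclei had 112 CPM of DLL4 in WT (49 UMIs) and 185 CPM in PIGinH11 (70 UMIs), a log2 ratio of 0.72 (interval 0.18 to 1.28). For DLL4 and JAG1 alike, capillary-like nuclei pooled several subclusters, 1 of which held 2 WT and 31 PIGinH11 nuclei. Its part in these ratios was not tested. Arterial-like nuclei had 104 and 108 CPM of DLL4. Venous-like nuclei had 27.2 CPM from 6 UMIs and 3.71 CPM from 1 UMI. Capillary-like over venous-like nuclei gave 4.12-fold in WT (interval 1.76 to 11.8). In PIGinH11 arterial-like nuclei, 5 of the 23 DLL4 UMIs came from 1 nucleus.

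RBPJ (ENSSSCG00000022155, chr8:19933035-20166746) encodes the factor through which all Notch receptors act on DNA, and it was detected in every class. Immune-like nuclei had 1924 CPM in WT (437 UMIs) and 1629 CPM in PIGinH11 (453 UMIs). Most of these UMIs lay in the macrophage-like nuclei, which had 3829 CPM (355 UMIs in 29 nuclei) and 3994 CPM (373 UMIs in 43 nuclei), whereas lymphocyte-like nuclei had 302 and 397 CPM. Macrophage-like exceeded lymphocyte-like nuclei 12.7-fold in WT (interval 8.00 to 21.3) and 10.1-fold in PIGinH11 (6.90 to 15.2). A single macrophage-like nucleus held 40 UMIs in WT and 80 UMIs in PIGinH11, and without it the levels were 3534 and 3393 CPM. The share of macrophage-like nuclei with an RBPJ UMI at 500 UMIs was 48.3% and 46.5%.

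In the remaining named classes RBPJ ranged from 155 CPM in endothelial-like to 391 CPM in stellate-like nuclei of WT, and from 172 CPM to 441 CPM in the same classes of PIGinH11. Acinar-like nuclei had 375 CPM in WT (11338 UMIs) and 298 CPM in PIGinH11 (4623 UMIs), and the intervals of these levels did not overlap. Ductal-like, endocrine-like and endothelial-like nuclei lay between 155 and 179 CPM with overlapping neighbours. The unnamed enzyme-rich cluster had less RBPJ, 30.8 CPM in WT (40 UMIs) and 103 CPM in PIGinH11 (12 UMIs). The log2 ratio of RBPJ there was 1.74 (interval 0.68 to 2.70). With the median log2 ratio of the better-counted genes of this cluster taken off, RBPJ was at -1.10. That median leaves out genes with few UMIs in either library. The ratio of 1.74 is thus not read as a rise of RBPJ in particular. PIGinH11 nuclei there had a median of 684 UMIs against 3050 in WT.

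HES1 (ENSSSCG00000031356, chr13:131135970-131137865) encodes a repressor that is the classical target of Notch. Endothelial-like nuclei had 53.5 CPM in WT (59 UMIs) and 35.3 CPM in PIGinH11 (44 UMIs). Ductal-like nuclei had 24.9 CPM in WT (214 UMIs, interval 21.7 to 28.5) and 54.0 CPM in PIGinH11 (180 UMIs, interval 46.4 to 62.5). Acinar-like nuclei had 5.60 CPM (169 UMIs) and 3.03 CPM (47 UMIs), so HES1 lay higher in PIGinH11 in ductal-like nuclei and lower in acinar-like nuclei.

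The fold of ductal-like over acinar-like nuclei for HES1 was 4.45 in WT (interval 3.62 to 5.47) and 17.9 in PIGinH11 (12.9 to 25.2). Ductal cluster 6 had 25.2 CPM in WT (184 UMIs) and 59.1 CPM in PIGinH11 (154 UMIs), cluster 7 had 25.4 and 40.8 CPM, and cluster 14 had 19.8 and 14.8 CPM from 11 and 2 UMIs. Thinned to 500 UMIs, 1.30% (interval 0.867 to 1.88) of WT and 2.50% (1.89 to 3.24) of PIGinH11 ductal-like nuclei had a HES1 UMI, while the unthinned shares went the other way, 8.28% and 5.95%, at the deeper WT library. Among endothelial-like nuclei, capillary-like nuclei had 84.7 and 60.8 CPM and venous-like nuclei 9.07 and 11.14 CPM. In arterial-like nuclei of PIGinH11, 10 of the 13 HES1 UMIs came from 1 nucleus, and the level was 61.3 CPM with it and 14.5 CPM without it. The same nucleus held 10 of the 44 endothelial HES1 UMIs of PIGinH11, and without it the endothelial level was 27.4 CPM.

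The second comparison is between the libraries, for genes with at least 50 UMIs over both libraries in a class. At least 2-fold (a log2 ratio of 1 or more in size) was taken as the mark of a difference, which is a size and not a test. Of 42 pairs of the 7 genes with 6 classes, 24 had 50 UMIs, 2 were at least 2-fold higher in PIGinH11, none was at least 2-fold lower, and 15 intervals held 0. Over all genes with 50 UMIs, the shares by class were 3.75% to 16.3% higher and 2.39% to 7.39% lower. The 2 pairs are read against these shares and are not by themselves a result about the 7 genes. The pairs past 2-fold were NOTCH3 in mural-like and HES1 in ductal-like nuclei.

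**Figure D3:**
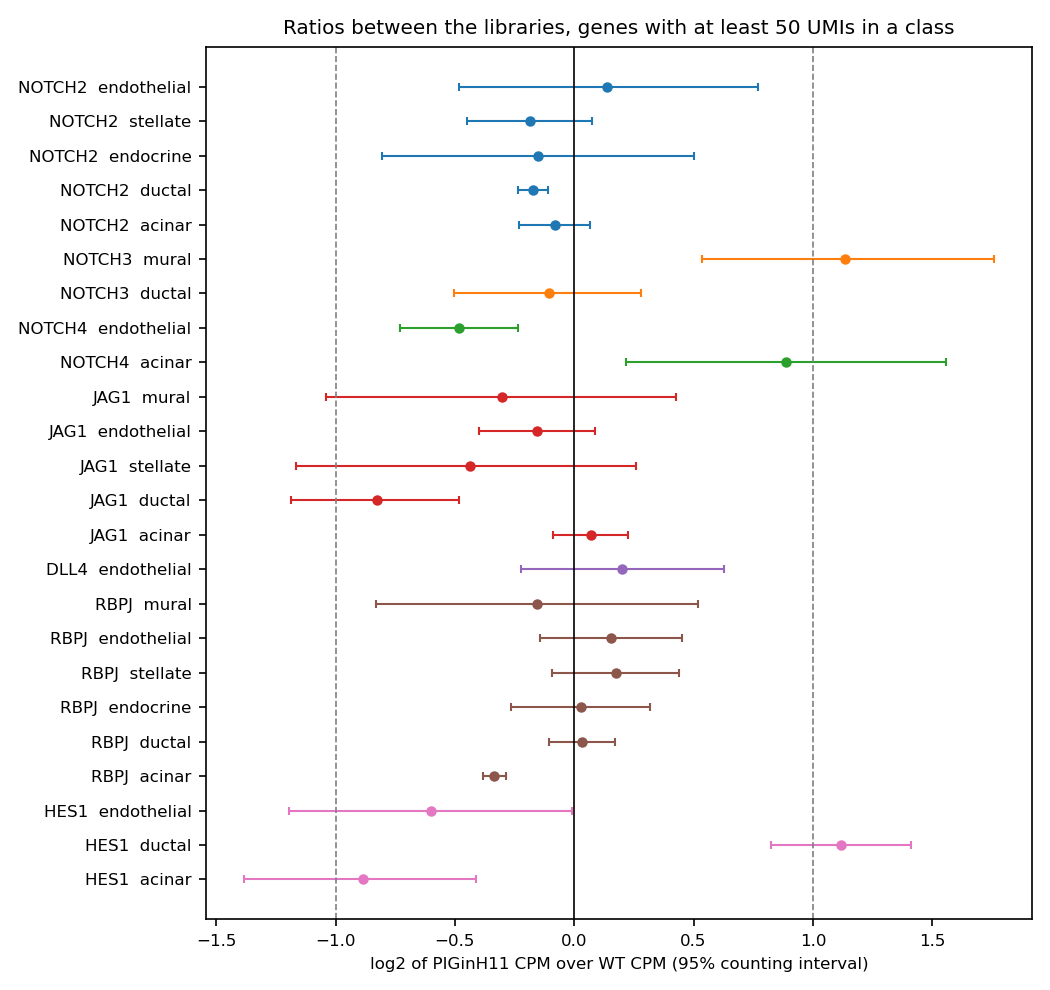
Log2 ratio of PIGinH11 over WT level for the 24 pairs of gene and class with at least 50 UMIs; points are ratios, bars are exact 95% conditional binomial intervals of counting error, and dashed lines mark 2-fold. NOTCH3 in mural-like (1.13) and HES1 in ductal-like nuclei (1.12) lie past 2-fold, and the remaining ratios lie between -0.89 and 0.89.

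In mural-like nuclei the log2 ratio of NOTCH3 was 1.13 (interval 0.53 to 1.76), against -0.30 for JAG1 and -0.16 for RBPJ, whose intervals held 0. Thus 1 of the 3 genes with 50 UMIs was at least 2-fold higher and none lower, where 7.9% of all 1164 such genes in mural-like nuclei were at least 2-fold higher and 7.39% lower. Without the mixed subcluster the NOTCH3 ratio was 1.02 (interval 0.38 to 1.71), and it lay under 2-fold as a mean over nuclei (0.86) or with nuclei thinned to 500 UMIs (0.85). The sum of mural markers, 5892 and 6304 CPM, differed less than NOTCH3 between the libraries. It pools pericyte and smooth muscle markers, so it cannot show a shift between these nuclei. Smooth-muscle-like nuclei were 6 of 38 in WT and 25 of 80 in PIGinH11, and held 2 of 34 and 43 of 77 NOTCH3 UMIs. Pericyte-like nuclei alone had a log2 ratio of 0.76 (interval -0.03 to 1.57). The part of this make-up in the class ratio was not tested.

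In endothelial-like nuclei none of the 6 genes with 50 UMIs was past 2-fold in either direction, where 4.66% of 6627 genes were higher and 2.9% lower. NOTCH4 had a log2 ratio of -0.48 (interval -0.73 to -0.24), HES1 -0.60 (-1.20 to -0.01), JAG1 -0.16, NOTCH2 0.14, RBPJ 0.15 and DLL4 0.20, the last 4 with intervals that held 0. Without the mixed subclusters NOTCH4 was at -0.27 (-0.53 to -0.01) and HES1 at -0.36 (-1.005 to 0.26). The mixed subclusters held 40 WT and 179 PIGinH11 nuclei, and NOTCH4 was 204 CPM in those of WT and 79.1 CPM in those of PIGinH11, whereas in arterial-like (-0.12), capillary-like (-0.18) and venous-like nuclei (-0.22) its intervals held 0. The summed acinar markers in endothelial-like nuclei were 2874 CPM in WT and 4175 CPM in PIGinH11.

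In stellate-like nuclei NOTCH2 (-0.19), JAG1 (-0.44) and RBPJ (0.17) had intervals that held 0 and none was past 2-fold, where 3.75% of 4670 genes were higher and 3.88% lower. In endocrine-like nuclei NOTCH2 (-0.15) and RBPJ (0.03) were also within 2-fold with intervals that held 0, and NOTCH2 was at 0.27 without the nucleus with the most UMIs, where 4.89% of 6855 genes were higher and 2.39% lower.

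In ductal-like nuclei HES1 had a log2 ratio of 1.12 (interval 0.82 to 1.41), 1 of 5 genes with 50 UMIs, where 10.6% of 11858 genes were at least 2-fold higher and 2.75% lower. JAG1 was at -0.83 (-1.19 to -0.48) and NOTCH2 at -0.17 (-0.24 to -0.11), while the intervals of NOTCH3 (-0.10) and RBPJ (0.03) held 0. None of the 5 was at least 2-fold lower. With the libraries scaled by the median of ratios (0.97), without doublet removal (0.97) or with nuclei thinned to 500 UMIs (0.94) HES1 lay under 2-fold. The summed ductal markers were 55801 CPM in WT and 45308 CPM in PIGinH11, and the summed acinar markers 1922 and 2871 CPM, and their part in these ratios was not tested.

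In acinar-like nuclei none of the 5 genes was past 2-fold, where 16.3% of 15937 genes were higher and 2.91% lower, and the median log2 ratio of these genes was 0.21. RBPJ was at -0.33 (interval -0.38 to -0.28), HES1 at -0.89 (-1.38 to -0.41), NOTCH2 at -0.08 and JAG1 at 0.07. NOTCH4 was at 0.89 (0.22 to 1.56), from 1.36 CPM (41 UMIs) to 2.51 CPM (39 UMIs), while the summed endothelial markers in the same nuclei were 108 CPM in WT and 181 CPM in PIGinH11. NOTCH4 UMIs amounted to 1.26% of the endothelial marker UMIs in WT and 1.39% in PIGinH11 acinar-like nuclei, beside 2.83% and 2.19% in endothelial-like nuclei, and the part of RNA from endothelial cells in this ratio was not tested.

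Outside these 6 classes, RBPJ had a log2 ratio of -0.24 (interval -0.43 to -0.05) in immune-like nuclei but 0.06 (-0.15 to 0.27) in macrophage-like nuclei alone. In the mixed immune subclusters, 23 WT and 104 PIGinH11 nuclei, it was -0.95 (-1.51 to -0.39). There the highest WT nucleus held 18 and the second 17 of the 63 RBPJ UMIs. Without the highest nucleus the WT level was 670 CPM in place of 881 CPM. In Schwann-like nuclei RBPJ was 302 CPM in WT and 188 CPM in PIGinH11, a log2 ratio of -0.69 with an interval that held 0 (-1.39 to 0.003). The acinar markers there summed to 5619 and 10199 CPM, and RBPJ in acinar-like nuclei was 375 and 298 CPM. The part of acinar RNA in this ratio was not tested.

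Receptors and ligands were also counted in the same nuclei. Of the WT endothelial-like nuclei, 154 had a NOTCH4 UMI and 59 a DLL4 UMI, and 50 had both. In PIGinH11 these numbers were 143, 70 and 39. Most nuclei with DLL4 thus also had NOTCH4 in both libraries, where the product of the separate shares gives 32.6 and 18.4 nuclei with both. Among arterial-like nuclei 17 of the 18 WT nuclei with DLL4 and 10 of the 14 PIGinH11 nuclei with DLL4 had NOTCH4. There the product gives 14 and 7.54 nuclei, since NOTCH4 was seen in 42 of 54 WT and 35 of 65 PIGinH11 arterial-like nuclei.

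NOTCH4 and JAG1 were found together in 85 WT endothelial-like nuclei, of 154 and 145 with each gene, and in 58 PIGinH11 nuclei, of 143 and 146. In mural-like nuclei NOTCH3 and JAG1 were found together in 11 of 19 and 19 WT nuclei and in 11 of 33 and 19 PIGinH11 nuclei. In ductal-like nuclei NOTCH2 and HES1 were together in 155 WT nuclei, of 1695 and 178, and in 83 PIGinH11 nuclei, of 1110 and 131. The product of the separate shares gives 80.0 nuclei in WT and 38.4 in PIGinH11 for NOTCH4 with JAG1. For NOTCH3 with JAG1 it gives 9.5 and 7.84 nuclei, and for NOTCH2 with HES1 140 and 66.1 nuclei. Deep nuclei are more likely to hold a UMI of either gene, so these counts are given as descriptions.

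The genes whose levels over 8 classes in 2 libraries (16 points, log2 of CPM plus 5) were most like those of each gene were named among 10043 genes. For NOTCH4 these were KANK3 (Pearson's r 0.974), TAL1 (0.969), a transcription factor of endothelium and blood, and ADGRF4 (0.967). For DLL4 they were CHP2 (0.996), TAL1 (0.993) and DIPK2B (0.992), and for JAG1 CAV1 (0.932), which builds caveolae, ADGRL2 (0.930) and NOSTRIN (0.920). The correlations of DLL4 and NOTCH4 rest mainly on the endothelial-like points, since the other classes lay near 0.

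For NOTCH3 the most similar were TPM1 (0.919), a tropomyosin of smooth muscle, RERGL (0.911) and ADCY5 (0.904), and for NOTCH2 SAT1 (0.885), KANK1 (0.862) and CD44 (0.858). For RBPJ they were GPR35 (0.920), NME8 (0.915) and LAMP1 (0.913), a lysosomal membrane protein, and for HES1 DDAH2 (0.903), WWTR1 (0.891) and CTNNB1 (0.874), the last 2 being the effectors TAZ and beta-catenin. All points of a correlation share the 2 libraries and their depths.

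A list of 70 further pathway genes was set beside the 7. Among the receptors, NOTCH1 was spread more widely, with 89.7 CPM in WT and 106 CPM in PIGinH11 endothelial-like nuclei, 92.3 and 107 CPM in ductal-like nuclei, while acinar-like nuclei had 29.1 and 21.6 CPM. NOTCH1 was looked up after its values were seen. Among the ligands, DNER, a Delta-like protein of neurons, reached 361 and 188 CPM in Schwann-like and 71.9 and 100.3 CPM in endocrine-like nuclei.

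Folds over the other classes are given here with 5 CPM added to both levels, which makes them smaller than plain ratios of the levels. Of the genes for the uptake and breakdown of receptors and ligands, NEURL1B is a ubiquitin ligase for Notch ligands. It was at 425 CPM in WT and 434 CPM in PIGinH11 mural-like nuclei, and these folds were 41.1 and 36.6. DTX1, a Deltex ubiquitin ligase, was at 64.9 and 76.6 CPM in ductal-like nuclei, with folds of 8.81 and 8.79 formed in the same way. Its relative DTX4 was at least 4-fold enriched in Schwann-like, immune-like and ductal-like nuclei, with 37.0 and 39.3 CPM in the last. NEURL1B, DTX1 and DTX4 are named because they passed this 4-fold rule, so their enrichment is no separate result about ubiquitin ligases.

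Among the nuclear partners and targets, the corepressor TLE2 was at 161 and 177 CPM in endocrine-like nuclei. The target HEY1 was at 18.1 and 23.3 CPM in endothelial-like nuclei and at or below 0.601 CPM in the other classes. In mural-like and Schwann-like nuclei any UMI would exceed 0.601 CPM, so HEY1 had no UMI there, which does not show absence. The exact upper bounds of a count of 0 are 28.0 and 27.1 CPM in mural-like nuclei of WT and PIGinH11. In Schwann-like nuclei they are 24.2 and 22.4 CPM. Low HEY1 in these classes relative to endothelial-like nuclei is thus not shown. Arterial-like nuclei had 34.6 and 47.1 CPM, from few UMIs of HEY1 among 231060 in WT and 212105 in PIGinH11. Venous-like nuclei had no HEY1 UMI among 220583 and 269337 UMIs, which does not show absence. Its relative HEYL, known from vascular smooth muscle, was at 152 and 132 CPM in mural-like nuclei, and acinar-like nuclei also had 158 and 148 CPM, from 4783 and 2300 UMIs. RBPJL, the acinar relative of RBPJ that acts with PTF1A, was at 1856 and 2552 CPM in acinar-like nuclei. NRARP had no UMI in any class.

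**Figure D4:**
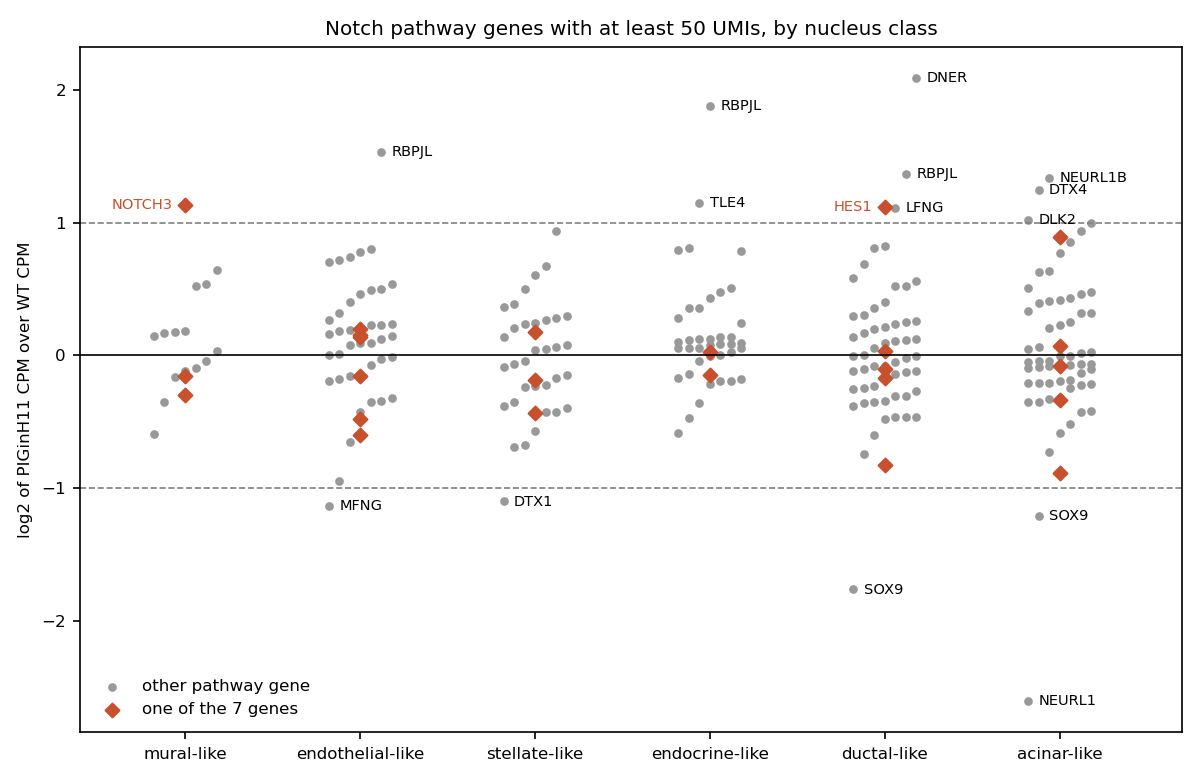
Log2 ratio of PIGinH11 over WT level in 6 classes, for genes that reached 50 UMIs there; grey points are the other pathway genes, diamonds are the 7 genes, dashed lines mark 2-fold, and genes past 2-fold are named. The sideways position within a class carries no value; most points lie within 2-fold, and DNER in ductal-like (2.09) and NEURL1 in acinar-like nuclei (-2.61) lie farthest out.

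Between the libraries, 243 pairs of a pathway gene and 1 of the 6 classes had 50 UMIs, of which 9 were at least 2-fold higher in PIGinH11, 5 were at least 2-fold lower and 229 were within 2-fold. Over all genes the shares ranged by class from 3.75% to 16.3% higher and from 2.39% to 7.39% lower. The 32 pairs of the proteases that cut the receptor and the 39 pairs of the coactivators were all within 2-fold, which is read against the same shares. In mural-like nuclei none of 14 genes was past 2-fold (7.9% of all genes higher and 7.39% lower), with a median log2 ratio of 0.09 beside 0.04 for all genes. Among the lowest were CREBBP (-0.59) and ITCH (-0.35) and among the highest SPEN (0.64) and MAML3 (0.52).

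In endothelial-like nuclei 1 of 41 pathway genes was past 2-fold in each direction, near the shares over all genes (4.66% higher and 2.9% lower). MFNG, a glycosyltransferase that modifies Notch, was at 31.7 CPM in WT and 14.4 CPM in PIGinH11 (log2 ratio -1.14, interval -2.04 to -0.28), followed by NEURL1B (-0.95) and CIR1 (-0.65). The highest were RBPJL (1.53), MIB2 (0.80) and the ligand DLL1 (0.78). In stellate-like nuclei 1 of 34 was past 2-fold (3.75% of all genes higher and 3.88% lower), DTX1 at -1.10 (-2.17 to -0.15), next to TLE1 (-0.69) and CIR1 (-0.68), and the highest were RBPJL (0.94), NCOR1 (0.67) and FBXW7 (0.60).

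In endocrine-like nuclei 2 of 39 were higher and none lower, beside 4.89% and 2.39% of all genes. They were RBPJL (1.88) and the corepressor TLE4 (1.15, interval 0.66 to 1.65), ahead of APH1B (0.81), and the lowest were TLE1 (-0.58), CIR1 (-0.47) and POFUT1 (-0.36). RBPJL is itself rich in acinar-like nuclei, and the classes in which it lay past 2-fold also had higher sums of acinar markers in PIGinH11, for endocrine-like nuclei 4380 CPM in WT and 7405 CPM in PIGinH11. The part of acinar RNA in these ratios was not tested.

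In ductal-like nuclei 3 of 56 pathway genes were higher and 1 was lower, beside 10.6% and 2.75% of all genes. SOX9, a transcription factor of duct cells and a Notch target, was at 35.7 CPM in WT (307 UMIs) and 10.5 CPM in PIGinH11 (35 UMIs), a log2 ratio of -1.76 (interval -2.31 to -1.26). HES1 in the same nuclei had a ratio of the opposite sign. DNER was at 3.95 and 16.8 CPM (2.09, interval 1.45 to 2.75), RBPJL at 54.7 and 141 CPM (1.37) and LFNG, a glycosyltransferase, at 4.30 and 9.31 CPM (1.11). PSENEN (-0.74) and DTX3L (-0.60) followed SOX9 at the low end.

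In acinar-like nuclei 3 of 59 pathway genes were higher and 2 were lower, beside 16.3% and 2.91% of all genes. NEURL1, a ubiquitin ligase for Notch ligands, was at 83.6 CPM in WT (2525 UMIs) and 13.7 CPM in PIGinH11 (213 UMIs), a log2 ratio of -2.61 (interval -2.82 to -2.40). SOX9 was at 1.79 and 0.773 CPM (-1.21) and the ligand JAG2 at 25.4 and 15.3 CPM (-0.73). The genes past 2-fold on the high side, NEURL1B (1.34), DTX4 (1.25) and DLK2 (1.02), were all below 5 CPM in both libraries, and NEURL1B and DTX4 are rich in other classes. The median over the 59 genes was -0.05, beside 0.21 over all genes in acinar-like nuclei, and in ductal-like nuclei the median over the 56 genes was -0.00303 beside 0.12.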

How the data were processed

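The files hold raw counts: UMIs per gene and barcode that the authors made with Cell Ranger on the Sscrofa11.1 pig genome and deposited before removing doublets or filtering. The submitters' processing notes name Cell Ranger 3.1.0 and Seurat 3.1.1, while the file headers name Cell Ranger 5.0.0. The matrices held 13619 WT barcodes with 55784067 UMIs and 14964 PIGinH11 barcodes with 26228811 UMIs.

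Nuclei with 270 to 3700 genes, at most 13000 UMIs and at most 10% mitochondrial UMIs were kept. The printed methods give a UMI limit of 1300, which lies below the median WT barcode (3216 UMIs) and was run as an alternative. Doublets were removed with Scrublet (scanpy 1.11.5) at 0.8% per 1000 barcodes (1483 WT and 1791 PIGinH11 nuclei marked). Clusters came from 2000 variable genes per library, 30 principal components, a Harmony-type correction between the libraries (own code in numpy 2.4.6) and Louvain clustering at resolution 1, with 77 Notch genes left out. A class was named from its markers, and mixed clusters stayed unnamed. UMIs were summed per class and library, and intervals were Poisson for levels, Clopper–Pearson for shares and conditional binomial for ratios (scipy 1.17.1). They treat UMIs as independent molecules and do not cover the spread between animals. The ratios and their intervals were also run on simulated independent Poisson counts with 200 changed genes. The intervals assume such counts, so this run could not show how they behave where single nuclei hold many UMIs of a gene.

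The genes and lists were chosen with earlier results of these data known. Pathway genes are named where they were at least 4-fold over the other classes in both libraries (offset 5 CPM) or among the 3 highest or 3 lowest ratios of a class, and similar genes are the 3 with the highest r. Some genes that this rule names are not reported here. No sequences are printed here.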

Additional observations from a re-analysis of the deposited data

Results flagged for a closer look

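For 3 genes there were log2 ratios of PIGinH11 over WT that went opposite ways in different classes with intervals that did not hold 0. The difference between the classes was not tested, since each group is 1 library. NOTCH4 was at 0.89 in acinar-like and -0.48 in endothelial-like nuclei. HES1 was at 1.12 in ductal-like, -0.60 in endothelial-like and -0.89 in acinar-like nuclei. JAG1 was at 0.78 in arterial-like, -0.94 in capillary-like and -0.73 in venous-like nuclei.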

How the results depend on the processing

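No paired analysis was possible because each group has 1 library, and for the same reason leaving out a replicate was not possible. Of 279 alternative values for 27 ratios of the 7 genes, 248 stayed within the counting interval of the reported value and 31 did not, and 15 of 258 values for ratios reported within 2-fold passed 2-fold.

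The 2 pairs at least 2-fold higher became 4 with 1.6% doublets per 1000 barcodes, 0 at a UMI limit of 1300, 1 with median-of-ratios scaling, 1 as a mean over nuclei, 0 with thinned nuclei and 5 with at least 10 UMIs. The count of pairs at least 2-fold lower, 0, became 1 with 1.6% doublets, with median-of-ratios scaling and as a mean over nuclei. The 9 pathway pairs on the high side became 16 as a mean over nuclei and 24 with at least 10 UMIs, and the 5 on the low side became 1 at a UMI limit of 1300, 2 with at least 20 UMIs in each library and 12 with at least 10 UMIs. The cause of these moves was not tested, other than that the UMI minimums change how many genes are counted.

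NOTCH3 in mural-like nuclei ranged from 0.85 to 1.18 and HES1 in ductal-like nuclei from 0.94 to 1.17. At a UMI limit of 1300 only 23 of the 27 ratios could be formed. The ratio of NOTCH3 in mural-like nuclei was not among them, and its highest WT level moved to ductal-like nuclei there. NOTCH4 in endothelial-like nuclei kept its sign (-0.72 to -0.27), as did JAG1 in ductal-like (-1.06 to -0.71), HES1 in acinar-like (-1.13 to -0.72) and NOTCH4 in acinar-like nuclei (0.40 to 1.04), whereas RBPJ in immune-like (-0.98 to 1.39), DLL4 in endothelial-like (-0.59 to 0.32) and NOTCH2 in ductal-like nuclei (-0.32 to 0.12) did not. Of 126 classes of highest level (7 genes in 2 libraries under each setting of the classes), 9 moved, 5 of them at a UMI limit of 1300. The WT library is 2.72 times as deep per barcode, and 18 of 42 pairs held too few UMIs for a ratio. The setting without mixed subclusters and that without the nucleus with the most UMIs were chosen after seeing the data.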
